A study of Mus musculus with 16 samples.

Results

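Expression of the TWEAK receptor and of genes of interleukin-6 family signalling was examined in the left ventricle, together with Il1b, its receptor Il1r1 and Ccl2. The set held 10 genes, Tnfrsf12a, Osmr, Lifr, Il6st, Il6ra, Socs3, Stat3, Il1b, Il1r1 and Ccl2, of the 12393 genes named by a probe set with exactly 1 symbol. They were taken by name, on every probe set whose annotation gives that symbol alone. The groups were male TAC, male sham, female TAC and female sham, with 4 arrays in each and 1 mouse per array. All mice were of the C57BL/6J strain and 12 to 14 weeks old, and the left ventricle was taken 14 days after the operation. TAC is transverse aortic constriction, a narrowing of the aorta that loads the left ventricle with pressure and causes hypertrophy, and sham mice are the operated controls. The series addresses how this early response depends on sex.

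Tnfrsf12a encodes Fn14, the receptor of the TNF superfamily ligand TWEAK, which recruits TRAF adaptors and can activate NF-kB. Cytokines of the IL-6 family signal through receptor complexes built around the shared subunit that Il6st encodes, and JAK kinases bound to these complexes phosphorylate STAT3, which induces its own feedback inhibitor Socs3. In heart muscle this pathway is known for growth and survival signals under load, and IL-1 beta and the chemokine encoded by Ccl2 are known mediators of inflammation and of the recruitment of monocytes.

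The values were the deposited signal intensities, which are on a linear scale in arbitrary units and are not comparable between probe sets. The 10 genes had 21 probe sets, and 3 genes had 1 probe set while 7 had several. A filter that left out the dimmest 40% of all probe sets kept 15 of the 21, for 9 genes, and left out 6, among them the only one of Il1r1. Dim probe sets were tested in the same model over all 22626 probe sets without controls. Differences were tested with limma on log2(signal + 16), and a call means an adjusted p below 0.05. "Rose" and "fell" are used only of calls. Where a gene had several probe sets, that with the highest mean over all arrays stood for the gene. Array medians lay between 189.7 and 222.3. All 12 cardiomyocyte markers, among them Myh6 and Tnnt2, passed the filter, with summed signals of 271460 to 430390. Measures of RNA quality moved with the operation. The Gapdh control's 3' over 5' signal ratio was 1.004 to 1.16 in male TAC against 0.837 to 0.921 in male sham mice, and 0.958 to 1.03 in female TAC against 0.785 to 0.918 in female sham mice. The 5' log2 signal of 18S rRNA was 9.11 to 13.2 in male TAC against 12.7 to 13.8 in male sham mice, and 9.35 to 10.7 in female TAC against 10.8 to 12.8 in female sham mice. Their part in the results was not tested beyond the fits that hold 1 of these measures as a covariate. Many of the calls those fits ended are given with the genes named, mostly with the log2 change in that fit. The shares of all probe sets called in those fits are not given, so counts under them are not read as particular to a list. The median log2 signal of all probe sets was lower in TAC than in sham arrays, by -0.06 in males and -0.12 in females.

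Judged by the brightest probe set of each gene, 3 of the 10 rose (Tnfrsf12a, Osmr and Il1b) and 1 fell (Lifr) in TAC against sham males, where 17.8% of all 13576 probe sets were called (8.07% higher and 9.77% lower). In females 2 of the 10 genes rose (Tnfrsf12a and Osmr) and 1 fell (Lifr), against 15.1% of all probe sets (6.46% higher and 8.6% lower). Counted over the 21 probe sets, 4 were higher and 3 lower in males, and 3 were higher and 3 lower in females. The groups did not overlap on 7 of the 21 probe sets in males, where 19.6% of all probe sets did not overlap, and on 7 in females, where 19.9% did not. Averaged over the sexes, 2 genes rose and 1 fell, and 28.7% of all probe sets were called (12.9% higher and 15.8% lower). None of the 6 dim probe sets was called by limma over all 22626 probe sets, with 1 at an unadjusted p below 0.05 in males and 0 in females, and 9.46% were called in males and 7.89% in females. In bulk tissue, fewer cells of a type and less RNA per cell cannot be told apart. No share of the members is read as a property of the set, since the genes were named with earlier results of these data known.

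**Figure D1:**
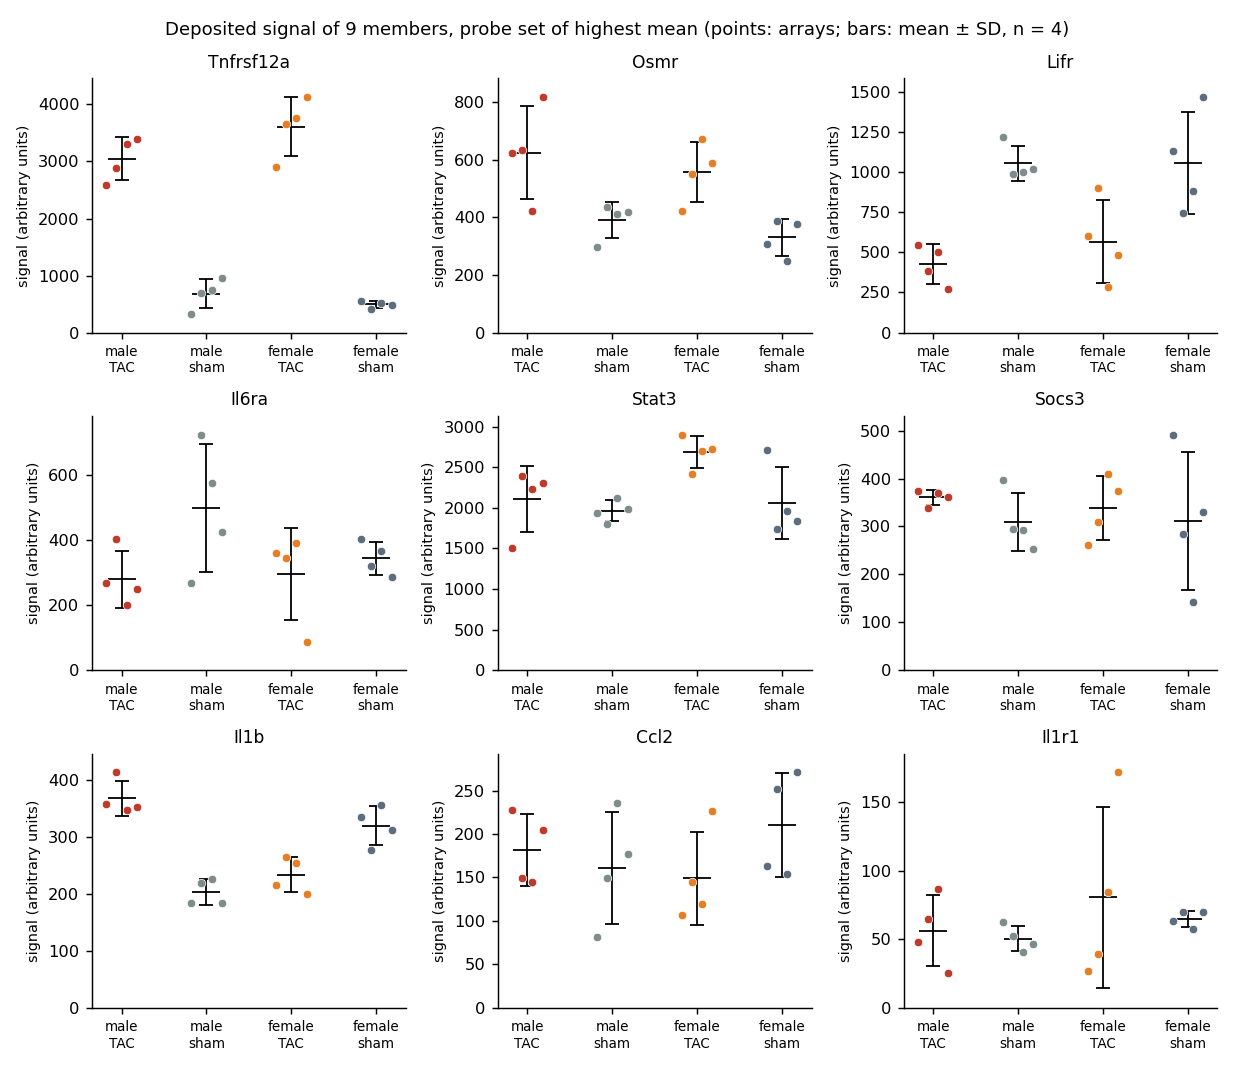
Deposited signal in arbitrary units (vertical axis, linear and starting at 0, with its own range in each panel) of 9 of the 10 genes in the 4 groups, each on its brightest probe set. Points are arrays, and bars give the mean and the SD (n = 4). All TAC arrays lie above all sham arrays for Tnfrsf12a, Lifr is lower in male TAC mice without overlap, and Il1b is higher in male TAC but lower in female TAC mice than in the shams of the same sex.

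Tnfrsf12a, the TWEAK receptor, had the largest change of the set. On probe set 1418571_at its signal was 2594.8, 2883.7, 3312.5 and 3401.8 in male TAC mice, against 332.5, 699.9, 747.6 and 958.1 in male sham mice. In female TAC mice it was 2901.1, 3663.7, 3757.0 and 4125.7, against 546.3, 412.9, 525.9 and 487.9 in female sham mice. The lowest TAC array of either sex thus lay far above the highest sham array. The rise was 4.64-fold in males (log2 2.21, SE 0.22, limma adjusted p = 1.32e-06) and 7.10-fold in females (log2 2.83, SE 0.22, adjusted p = 1.18e-07), with n = 4 in each group. The second probe set, 1418572_x_at, whose suffix marks probes that can match other transcripts as well, rose by a log2 value of 2.33 in males and 2.49 in females. The female response exceeded the male response by 0.61 on the first probe set (95% interval -0.03 to 1.26, adjusted p = 0.768) and by 0.16 on the second (-0.37 to 0.69), so a sex difference was not shown and its interval reaches above 1 log2 unit on one probe set. All 4 calls held under every alternative tried.

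The promoter window of Tnfrsf12a is shown because this gene changed most, that of Il1b because its TAC arrays lay above the shams in males and below them in females, and that of Socs3 because it is the STAT3 feedback gene. Each window is the 250 bases before a transcript start in the RefSeq promoter table on GRCm38.p6, read 5' to 3' on the gene's own strand, which is the minus strand for all 3. They lie at chr17:23677450-23677699 for Tnfrsf12a, chr2:129371140-129371389 for Il1b and chr11:117969367-117969616 for Socs3. Other annotated transcripts start further upstream, so the Socs3 window lies inside the annotated span of its gene and the Il1b window overlaps that span. Capitals mark matches to the motifs searched.
Tnfrsf12a: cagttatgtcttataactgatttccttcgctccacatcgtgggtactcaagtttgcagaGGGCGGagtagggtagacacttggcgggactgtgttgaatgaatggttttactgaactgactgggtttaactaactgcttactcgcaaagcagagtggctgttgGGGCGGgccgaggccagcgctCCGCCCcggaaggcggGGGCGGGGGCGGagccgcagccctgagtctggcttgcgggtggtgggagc
Il1b: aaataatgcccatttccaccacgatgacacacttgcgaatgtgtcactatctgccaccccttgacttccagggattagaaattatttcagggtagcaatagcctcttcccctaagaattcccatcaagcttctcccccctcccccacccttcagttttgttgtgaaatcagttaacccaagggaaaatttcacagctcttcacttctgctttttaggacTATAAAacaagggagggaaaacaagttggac
Socs3: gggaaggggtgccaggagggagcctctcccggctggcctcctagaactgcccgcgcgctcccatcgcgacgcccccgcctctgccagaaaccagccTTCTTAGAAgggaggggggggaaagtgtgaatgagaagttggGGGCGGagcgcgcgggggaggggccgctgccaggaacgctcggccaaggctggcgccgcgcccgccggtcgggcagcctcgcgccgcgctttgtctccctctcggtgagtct
The letters searched, on both strands, were TGANTCA for AP-1, TTCNNNGAA for STAT, GGG, any 3 bases and TTCC for NF-kB, TATAAA for a TATA box and GGGCGG for a GC box. The Tnfrsf12a window held 5 GC boxes, and of 32851 such windows 1.93% held 5 or more. The Il1b window held no GC box and had TATAAA at 31 to 26 bases before the start, letters that 12.4% of windows hold anywhere. The Socs3 window held the STAT letters, as TTCTTAGAA at 154 to 146 bases before the start, which 7.02% of windows hold, and 1 GC box, which 32.7% hold at least once. Windows were found for 9 of the 10 genes, 11 windows in all. Among the others, Il6st and Stat3 held 1 GC box each, Osmr held 2, and 1 of the windows of Lifr held 2 and 1 of Il1r1 held 1. The AP-1 letters, which 6.75% of windows hold, were in no window of the set, and the NF-kB letters, which 4.65% hold, were in 1 of the windows of Il1r1. These are matches of letters and not measured binding sites.

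Receptor subunits of the IL-6 family did not move in 1 direction. Osmr encodes the oncostatin M receptor subunit, which pairs with the product of Il6st. On 1418674_at its signal was 624.4, 633.0, 423.5 and 816.5 in male TAC mice, against 296.9, 436.6, 410.4 and 417.1 in male sham mice. Female TAC mice had 421.6, 551.0, 671.2 and 588.7, against 307.5, 387.8, 247.9 and 377.9 in female sham mice. Every female TAC array was above every female sham array, while in males the lowest TAC array fell among the shams. Osmr rose 1.55-fold in males (log2 0.63, SE 0.20, limma adjusted p = 0.0355) and 1.66-fold in females (log2 0.73, SE 0.20, adjusted p = 0.0188), and averaged over the sexes by 0.68 (adjusted p = 0.00119). The male call was lost under 11 alternatives, among them no filter, only the groups compared, the 18S (log2 0.94) and Gapdh (log2 0.21) covariates and leaving out any of male TAC 1, 2 and 5 or male sham 1, 3 and 4. The female call was lost with the Gapdh covariate (log2 0.44), with the replicate block and without female TAC 3 or female sham 3, and the average was lost with the Gapdh covariate (log2 0.33, adjusted p = 0.584). The other probe set of Osmr, 1418675_at, is dim and pointed downwards, with signals of 40.9 to 103.7 in male TAC against 117.6 to 189.2 in male sham mice (log2 -1.05, adjusted p = 0.107) and 47.9 to 130 in female TAC against 80.5 to 205.8 in female sham mice (-0.42). The 2 probe sets of Osmr therefore disagree in direction, and only the brighter one was called.

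Lifr encodes the leukaemia inhibitory factor receptor, which also binds cardiotrophin-1. Its signal on 1454984_at was 549.0, 383.3, 501.6 and 271.2 in male TAC mice, against 1219.0, 986.1, 1001.1 and 1020.4 in male sham mice. In females it was 602.1, 901.5, 284.9 and 481.3 in TAC mice, against 1130.2, 745.6, 884.9 and 1466.6 in sham mice. The male groups did not overlap, and in females 1 TAC array, replicate 2, lay above the 2 lowest shams. Lifr fell 2.5-fold in males (log2 -1.32, SE 0.27, limma adjusted p = 0.00195) and 1.93-fold in females (log2 -0.95, SE 0.27, adjusted p = 0.0229). The male call was lost with the Gapdh covariate (log2 -1.16, adjusted p = 0.228), and over all alternatives the male change stayed between -1.84 and -1.13. The female call was lost with that covariate (log2 -0.83), with the replicate block and without female TAC 3 or 5 or female sham 1 or 4. The 2 dim probe sets of Lifr were not called, with male log2 values of -0.63 and -0.07 and female values of -0.21 and -0.42.

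Il6st encodes the signal-transducing subunit shared by the whole family, and its 3 probe sets differed. On the brightest, 1452843_at, the signal was 1563.0, 1685.7, 1921.9 and 1620.0 in male TAC mice, against 1848.3, 1508.0, 1573.7 and 1482.2 in male sham mice. In female TAC mice it was 1570.8, 1741.6, 1688.0 and 2000.1, against 2143.6, 1619.9, 1975.7 and 1776.7 in female sham mice. The groups overlapped in both sexes, and the log2 change was 0.08 in males (95% interval -0.17 to 0.33) and -0.10 in females (-0.35 to 0.15). On 1460295_s_at, whose suffix marks probes shared by several transcripts, the signal was 283.9, 308.8, 334.5 and 275.8 in male TAC mice, against 686.4, 724.5, 790.5 and 579.1 in male sham mice, and 388.7, 347.0, 359.4 and 272.2 in female TAC mice, against 666.1, 753.3, 825.2 and 610.7 in female sham mice. There the groups were far apart. This probe set fell 2.24-fold in males (log2 -1.16, SE 0.15, limma adjusted p = 2.84e-05) and 2.04-fold in females (log2 -1.03, SE 0.15, adjusted p = 0.000143), and both calls held under every alternative. On the third, 1421239_at, the signal was 112.2 to 123.1 in male TAC against 280.2 to 400.5 in male sham mice, and 100.8 to 172.0 in female TAC against 209.7 to 364.0 in female sham mice. It fell by 1.40 on the log2 scale in males (adjusted p = 0.000245) and by 0.94 in females (adjusted p = 0.00775), and each call was lost only with the Gapdh covariate, where the change was no smaller (log2 -1.54, adjusted p = 0.0525 in males, and -1.04, adjusted p = 0.0906 in females).

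The disagreement within Il6st was also taken array by array, as the log2 difference of each lower probe set from 1452843_at, a comparison added after the values were seen. For 1460295_s_at this difference averaged -2.43 in male TAC against -1.19 in male sham mice, and -2.31 in female TAC against -1.38 in female sham mice. For 1421239_at it averaged -3.69 in male TAC against -2.21 in male sham mice, and -3.55 in female TAC against -2.71 in female sham mice. In each of these 4 comparisons no TAC array overlapped a sham array, with a two-sided exact permutation p = 0.0286, the smallest that 4 against 4 arrays allow, and an adjusted p = 0.0857 over the 12 comparisons of this kind. What part of the transcript each probe set matches was not analysed here. Among 12 cardiomyocyte markers 0 were higher and 5 lower in males, where 8.07% of all probe sets were higher and 9.77% lower. In females 1 was higher and 8 lower, where 6.46% and 8.6% of all probe sets were. The median log2 change of these markers was -0.30 in males and -0.35 in females. Their summed signal was 309082 to 366038 in male TAC against 355682 to 430390 in male sham mice, and 271460 to 336841 in female TAC against 371378 to 388824 in female sham mice. None was at 0, and their part in the falls of Il6st and Lifr was not tested.

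**Figure D2:**
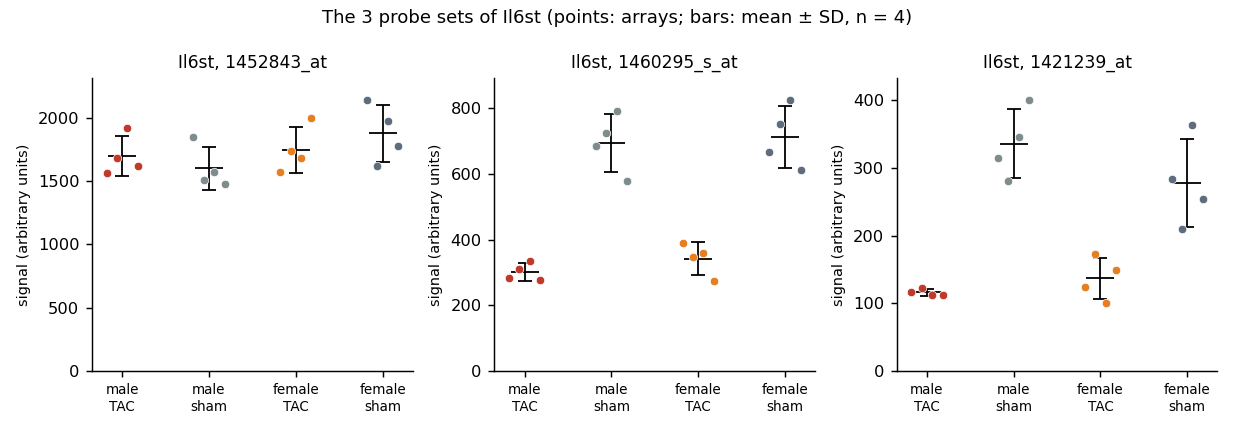
Deposited signal in arbitrary units (vertical axis, linear from 0, own range in each panel) of the 3 probe sets of Il6st in the 4 groups. Points are arrays, and bars give the mean and the SD (n = 4). TAC and sham arrays overlap on 1452843_at and are apart in both sexes on 1460295_s_at and 1421239_at.

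Il6ra encodes the ligand-binding receptor of IL-6 itself. On 1422270_a_at its signal was 268.2, 404.3, 200 and 248.6 in male TAC mice, against 269.1, 724.4, 577.3 and 424.4 in male sham mice, and 359.6, 346.5, 391.9 and 86.6 in female TAC mice, against 403.1, 320.4, 367.2 and 286.5 in female sham mice. The groups overlapped in both sexes, and the lowest value was that of female TAC 5. The log2 change was -0.75 in males (95% interval -1.50 to -0.00, limma adjusted p = 0.166) and -0.38 in females (-1.13 to 0.37, adjusted p = 0.543), so neither passed. Without female TAC 5 the male change was called (adjusted p = 0.0446).

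Downstream of the receptors, 1 probe set of Stat3 was called, on the average of the sexes, and none of Socs3. Stat3, the transcription factor of the pathway, had on its brightest probe set, 1426587_a_at, 1509.5, 2388.4, 2230.8 and 2312.4 in male TAC mice, against 1940.2, 1806.0, 2121.9 and 1992.8 in male sham mice, and 2901.0, 2422.0, 2706.6 and 2724.2 in female TAC mice, against 2716.8, 1734.8, 1965.2 and 1835.8 in female sham mice. One female sham array lay as high as the TAC arrays, and 1 male TAC array lay below all male shams. The log2 change was 0.08 in males and 0.40 in females (limma adjusted p = 0.076), and the average of the sexes was 0.24 (adjusted p = 0.0932), called without male TAC 1, without female sham 1 and after median centring. On 1460700_at the signal was 1345.1 to 1781.3 in male TAC against 1120.8 to 1502.2 in male sham mice, and 1459.3 to 2076.7 in female TAC against 1140.9 to 1367.1 in female sham mice. Averaged over the sexes this probe set rose 1.28-fold (log2 0.36, SE 0.10, adjusted p = 0.00804), a call lost with the 18S covariate (log2 0.40, adjusted p = 0.0911), while within males (0.31, adjusted p = 0.128) and within females (0.41, adjusted p = 0.0506) it did not pass. The female change was called under 10 alternatives, with a smallest adjusted p of 0.0169, and on 1426587_a_at under 4, with a smallest of 0.0154. The third probe set, 1424272_at, had an average log2 change of -0.66 (adjusted p = 0.136), so the probe sets of Stat3 did not share a direction.

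Socs3, the feedback inhibitor, was not called on any probe set. On 1456212_x_at it had 374.1, 338.3, 370.0 and 360.7 in male TAC mice, against 396.1, 295.5, 292.0 and 253.6 in male sham mice, and 260.4, 309.8, 410.4 and 374.2 in female TAC mice, against 491.3, 284.2, 141.5 and 330.6 in female sham mice. The sham arrays spanned the TAC arrays in both sexes, and the log2 change averaged over the sexes was 0.22 (95% interval -0.16 to 0.60). On 1455899_x_at that average was 0.65 (0.13 to 1.16, limma adjusted p = 0.0575), and it was called under 8 alternatives, with a smallest adjusted p of 0.0304. The female TAC signals on this probe set were 295.8, 257.1, 906.4 and 417.9, so replicate 3 stood above the rest. Both of these Socs3 probe sets have the suffix of probes that can match other transcripts as well. The third, 1416576_at, lacks it but is dim, with log2 changes of 0.45 in males and -0.35 in females.

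Il1b, the gene of IL-1 beta, was the only member whose TAC and sham arrays did not overlap in either sex and whose direction differed between the sexes. On its only probe set, 1449399_a_at, the signal was 358.6, 413.8, 347.6 and 352.4 in male TAC mice, against 183.5, 219.3, 227.2 and 184.8 in male sham mice. In females it was 216.6, 264.8, 255.3 and 199.2 in TAC mice, against 335.1, 277.0, 356.3 and 312.3 in sham mice. All male TAC arrays were above all male shams, and all female TAC arrays were below all female shams, a pattern that 0.0221% of all probe sets showed. Il1b rose 1.75-fold in males (log2 0.81, SE 0.17, limma adjusted p = 0.00243), a call lost with the 18S covariate (log2 0.72, adjusted p = 0.0949) and with the Gapdh covariate (log2 0.73, adjusted p = 0.224), where the change was of similar size. In females the log2 change was -0.43 (95% interval -0.79 to -0.07, adjusted p = 0.101), which did not pass but was called without the intensity trend (adjusted p = 0.0376). The test of the difference itself gave a female minus male response of -1.24 (95% interval -1.74 to -0.73), the third smallest p of 13576 probe sets (unadjusted p = 5.47e-05), and after adjustment it did not pass (adjusted p = 0.216, and 0.0658 to 0.492 over the alternatives). No probe set of the array passed that comparison in limma, and 6.61% had an unadjusted p below 0.05.

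Set by sex within 1 operation, Il1b also did not overlap. Female sham mice were above male sham mice (log2 0.61, 1.53-fold, limma adjusted p = 0.160), and female TAC mice were below male TAC mice (log2 -0.62, adjusted p = 0.427). Neither passed. None of the 21 member probe sets was called between females and males in limma, and 2 had an unadjusted p below 0.05 within sham mice and 2 within TAC mice, against 10.5% and 6.44% of all probe sets. Over all probe sets 0.309% were called between female and male sham mice and 0.0663% between female and male TAC mice. Groups did not overlap on 2 member probe sets in either comparison, against 7.09% of all probe sets in sham and 3.43% in TAC mice.

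Il1b is made largely by myeloid cells, so markers of macrophages and neutrophils are given beside it. Of 20 macrophage markers, 6 were called higher and 0 lower in males, where 8.07% of all probe sets were higher, and 3 were higher and 0 lower in females, where 6.46% were. With the 18S covariate 2 were higher in males and 5 in females, and with the Gapdh covariate 1 was higher in each sex. Their summed signal was 19925 to 23126 in male TAC against 13637 to 20095 in male sham mice, and 16963 to 24604 in female TAC against 13173 to 15551 in female sham mice. Of the 12 neutrophil markers on the array 5 passed the filter and 0 were called in either sex, with 0 at an unadjusted p below 0.05 in males and 1 in females. Averaged over the sexes 1 of the 5 was lower and 0 higher, where 15.8% of all probe sets were lower. In that average their median log2 change was -0.32, and 3 had an unadjusted p below 0.05 in limma, against 38.9% of all probe sets. No marker of either list had a signal of 0 on any array. Among the defining markers, Adgre1 rose by 0.83 in males (adjusted p = 0.0013) and had a log2 change of 0.42 in females (adjusted p = 0.091), and Csf1r rose by 0.52 in males and 0.64 in females. The part of these cells in the Il1b result was not tested.

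The remaining members of the inflammatory branch gave no call. Il1r1, the IL-1 receptor, was dim in all groups, with signals of 25.4 to 86.6 in male TAC against 40.5 to 62.2 in male sham mice and 26.7 to 171.7 in female TAC against 57.7 to 70.0 in female sham mice. Ccl2, the monocyte chemoattractant, had 227.5, 149.2, 144.8 and 204.8 in male TAC mice, against 81.4, 149.7, 236.0 and 176.8 in male sham mice, and 107.0, 144.3, 119.3 and 226.3 in female TAC mice, against 163.7, 252.2, 153.7 and 271.0 in female sham mice. Its groups overlapped, with log2 changes of 0.22 in males (95% interval -0.45 to 0.88) and -0.47 in females (-1.13 to 0.20).

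**Figure D3:**
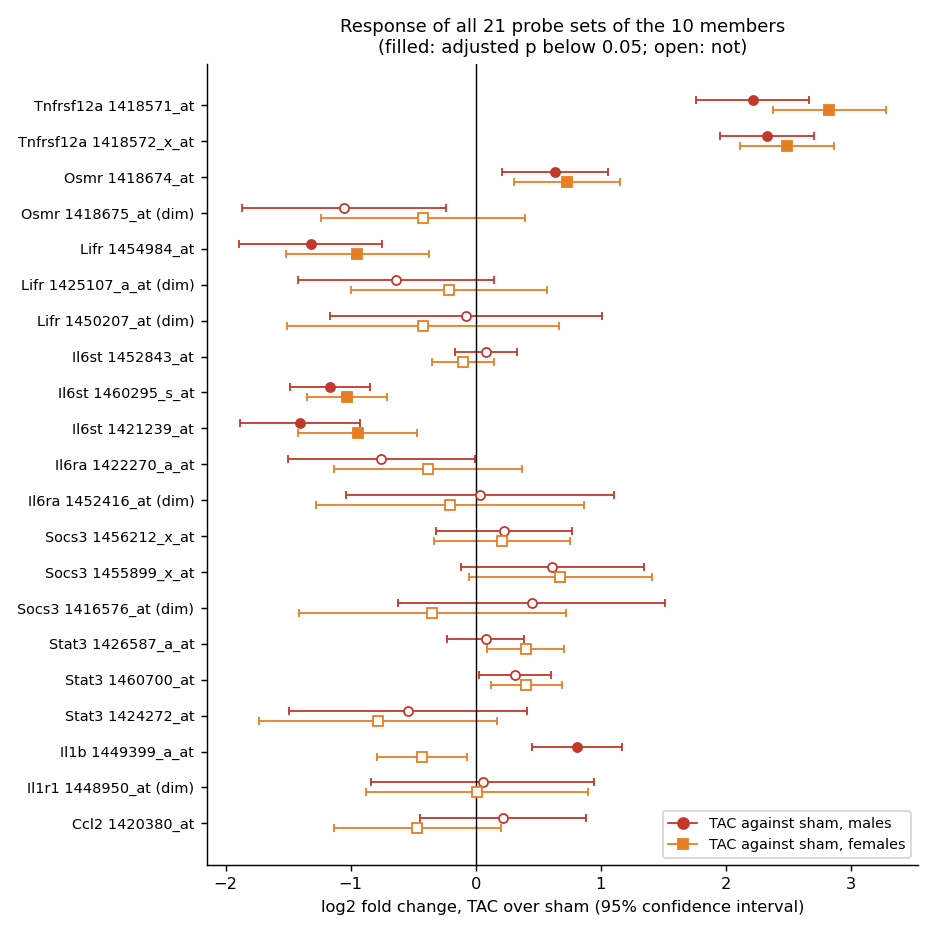
Log2 fold change of TAC over sham (horizontal axis) for all 21 probe sets of the 10 genes, in males (circles) and females (squares), with 95% confidence intervals. Filled symbols have an adjusted p below 0.05, and probe sets left out by the filter are marked dim. The Tnfrsf12a probe sets stand between 2.21 and 2.83, and the Il1b symbols lie on opposite sides of 0.

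The surrounding pathway genes were counted on 1 probe set per gene, in lists chosen with earlier results of these data known. Among IL-6 family ligands, 2 of the 6 on the array passed the filter. Ctf1, which encodes cardiotrophin-1, a ligand of the Lifr receptor, averaged 227 ± 63 in male TAC against 387 ± 35 in male sham mice, and 319 ± 42 in female TAC against 578 ± 65 in female sham mice (SD, n = 4 each). Without overlap in either sex, it fell by 0.76 on the log2 scale in males (limma adjusted p = 0.00644) and by 0.83 in females (adjusted p = 0.0041). Both calls were lost with the Gapdh covariate (log2 -0.52 in males and -0.66 in females) and the male one with the 18S covariate (-0.55). Clcf1, which encodes cardiotrophin-like cytokine, had an averaged log2 change of 0.20 on its brightest probe set (adjusted p = 0.585), while 1 of its 2 dim probe sets rose by 1.18 (adjusted p = 0.0089) and the other had -0.02. Il6, Il11 and Lif were dim and not called.

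Of 18 JAK kinases, other STATs and restraining proteins that passed the filter, 3 were higher and 4 lower averaged over the sexes, with a median log2 change of -0.07, against -0.03 over all probe sets. Over all probe sets 12.9% were higher and 15.8% lower in that average. Within males 3 were higher and 4 lower, against 8.07% and 9.77% of all probe sets, and 1 and 1 without male TAC 5. Within females 2 were higher and 3 lower, against 6.46% and 8.6% of all probe sets. Jak1, a kinase that couples these receptors to STATs, had 968.6, 940.9, 1013.5 and 960.5 in male TAC mice, against 2193.6, 1924.3, 1961.3 and 2298.8 in male sham mice. In female TAC mice it had 1117.8, 1287.0, 1143.0 and 963.9, against 2277.2, 2358.3, 2837.4 and 2231.5 in female sham mice. The groups were well apart, and Jak1 fell by 1.09 in males (limma adjusted p = 2.43e-06) and by 1.09 in females (adjusted p = 3.96e-06), and both calls held under every alternative. A second bright probe set of Jak1 fell by 0.33 averaged over the sexes (adjusted p = 0.015), so the size differed between its probe sets. Cish, another feedback inhibitor of STAT signalling, rose by 0.66 in males and 1.02 in females, and Stat5b fell by 0.46 and 0.48. Ptpn2, a phosphatase of JAKs and STATs, rose by 0.93 averaged over the sexes, but its other bright probe set had a log2 change of 0.21 (adjusted p = 0.296). The male calls of Cish, Stat5b and Ptpn2 were lost under 7, 7 and 9 alternatives. In males the Gapdh covariate left a log2 change of 0.07 for Cish, -0.35 for Stat5b and 0.86 for Ptpn2. With that covariate their averaged calls were lost too (0.34 for Cish, -0.38 for Stat5b and 0.90 for Ptpn2), as were their female calls.

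Of 26 genes known to be induced by STAT3 or in the acute phase, 17 passed the filter, and 8 were higher and 1 lower averaged over the sexes, with a median of 0.54. Over all probe sets 12.9% were higher and 15.8% lower in that average. Within males 5 were higher and 1 lower, where 8.07% of all probe sets were higher and 9.77% lower. Without male TAC 5 the male counts were 4 and 1, and with the 18S covariate 6 and 1. Within females 3 were higher and 0 lower, where 6.46% and 8.6% of all probe sets were. The female counts were 5 and 0 without male TAC 5 and 7 and 0 with the 18S covariate. Timp1, an inhibitor of matrix metalloproteinases, had 452.4, 752.1, 365.4 and 622.5 in male TAC mice, against 134.0, 181.8, 116.7 and 145.6 in male sham mice, and 311.3, 287.3, 648.7 and 613.9 in female TAC mice, against 166.3, 193.5, 50.4 and 148.4 in female sham mice. Every TAC array was above every sham array of its sex, and Timp1 rose by 1.78 in males (limma adjusted p = 0.000981) and by 1.66 in females (adjusted p = 0.00216), and both calls were lost with the Gapdh covariate, where the log2 change was 1.58 in males and 1.53 in females. Ccnd1, a G1 cyclin, rose by 0.55 averaged over the sexes, a call lost with the 18S covariate (0.28). Its other bright probe sets had averages of 0.40 (limma adjusted p = 0.00476) and 0.19 (adjusted p = 0.183). Mcl1, an inhibitor of apoptosis, rose by 0.38 averaged over the sexes, a call lost with the Gapdh covariate (0.48). Of the other 5 probe sets of Mcl1, 1 was called and rose and 2 had log2 values below 0. Lrg1, a secreted acute-phase glycoprotein, fell by 0.89 in males (adjusted p = 0.0013) and had a change of -0.20 in females. The male call of Lrg1 was lost with the 18S (log2 -0.74) and the Gapdh covariate (-1.03), and its averaged call with both. With the Gapdh covariate 1 gene of this list was higher and 0 lower in each sex and on average. Several genes of this list are expressed by fibroblasts, so 14 fibroblast markers are given beside it. In males 9 were higher and 1 lower, where 8.07% of all probe sets were higher and 9.77% lower. In females 6 were higher and 0 lower, where 6.46% and 8.6% of all probe sets were. With the 18S covariate 6 were higher in each sex, and with the Gapdh covariate 3 in males and 4 in females. The summed signals of the fibroblast markers were 38756 to 63149 in male TAC against 22875 to 26695 in male sham mice. In females they were 37097 to 51558 in TAC against 25803 to 30353 in sham mice. None was at 0, and their part in the result was not tested.

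Genes of the TWEAK and NF-kB list that passed the filter gave no call. Signalling downstream of the TWEAK receptor was not measured. Of 22 genes of the TWEAK and NF-kB list 18 had a probe set with 1 symbol and 12 passed the filter, and limma called 0 in males, females or their average, with 0, 2 and 1 at an unadjusted p below 0.05. Over all probe sets 17.8% were called in males, 15.1% in females and 28.7% on average. The median of the list was 0.03 averaged over the sexes. Nfkb2, which carries the noncanonical branch, had log2 changes of 0.29 in males and -0.44 in females, and Birc3, a target and regulator of NF-kB, of 0.25 and 0.16. Map3k14 had -0.01 in males and -0.54 in females (limma adjusted p = 0.0996). The female change of Map3k14 was called without female TAC 1 (adjusted p = 0.0359). Its dim probe set had 1.28 in males (adjusted p = 0.081) and -0.39 in females. Nfkbib had -0.17 in males and -0.43 in females (adjusted p = 0.163), and Rela had 0.12 and 0.09. With the 18S covariate 2 genes of this list were called higher averaged over the sexes. The ligand gene Tnfsf12 has no probe set that names it alone and was not analysed here.

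In the IL-1 family list, 10 of 16 genes passed the filter. Averaged over the sexes 3 were lower and 0 higher, where 15.8% of all probe sets were lower and 12.9% higher. Tollip, an inhibitor of IL-1 receptor signalling, fell by 0.41 (limma adjusted p = 0.000872), and on its other bright probe set by 1.24 (adjusted p = 0.000103). Il1rap, the accessory chain that pairs with Il1r1, fell by 1.05 in females (adjusted p = 0.00602), a call lost with the Gapdh covariate (-0.91), and had a change of -0.04 in males. Il18 fell by 0.45 with an adjusted p = 0.0493 that was lost under 20 alternatives. With the 18S or the Gapdh covariate none of the 3 averaged calls stayed. The log2 values were -0.35 and -0.43 for Tollip, -0.59 and -0.37 for Il1rap and -0.62 and -0.57 for Il18. Without male TAC 5 there were 2 averaged calls.

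Of 24 chemokines on the array 11 passed the filter, and 2 were higher and 2 lower averaged over the sexes, 1 and 3 without male TAC 5. Over all probe sets 12.9% were higher and 15.8% lower in that average, the share for each list of this paragraph. The counts are not read as changes of these families. Ccl8, a monocyte chemoattractant related to Ccl2, rose by 0.50 (limma adjusted p = 0.00543), and Cxcl16 fell by 0.57 (adjusted p = 0.0106). Both were lost with either covariate, with log2 values of 0.60 (18S) and 0.67 (Gapdh) for Ccl8 and of -0.39 and -0.45 for Cxcl16. Among chemokine receptors 1 of 4 was higher, Ackr3, by 0.31, a call lost under 19 alternatives. Among these were the 18S (log2 0.42) and Gapdh (log2 0.14) covariates. Of the other TNF superfamily genes 8 of 24 passed the filter, and 1 was higher and 1 lower averaged over the sexes. Tnfrsf1a, the main TNF receptor, rose by 0.43 in males (adjusted p = 0.041, lost under 13 alternatives) and by 0.59 in females (adjusted p = 0.00802), and Tnfrsf21, a death domain receptor, fell by 0.67 averaged over the sexes (adjusted p = 0.0136). Another bright probe set of Tnfrsf21 had a log2 change of -0.12 (adjusted p = 0.821). Both covariates ended the averaged call of Tnfrsf1a (0.33 with 18S and 0.41 with Gapdh). They also ended its male call (0.21 and 0.31) and its female call (0.46 and 0.51). The Gapdh covariate ended the averaged call of Tnfrsf21 (-0.08).

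**Figure D4:**
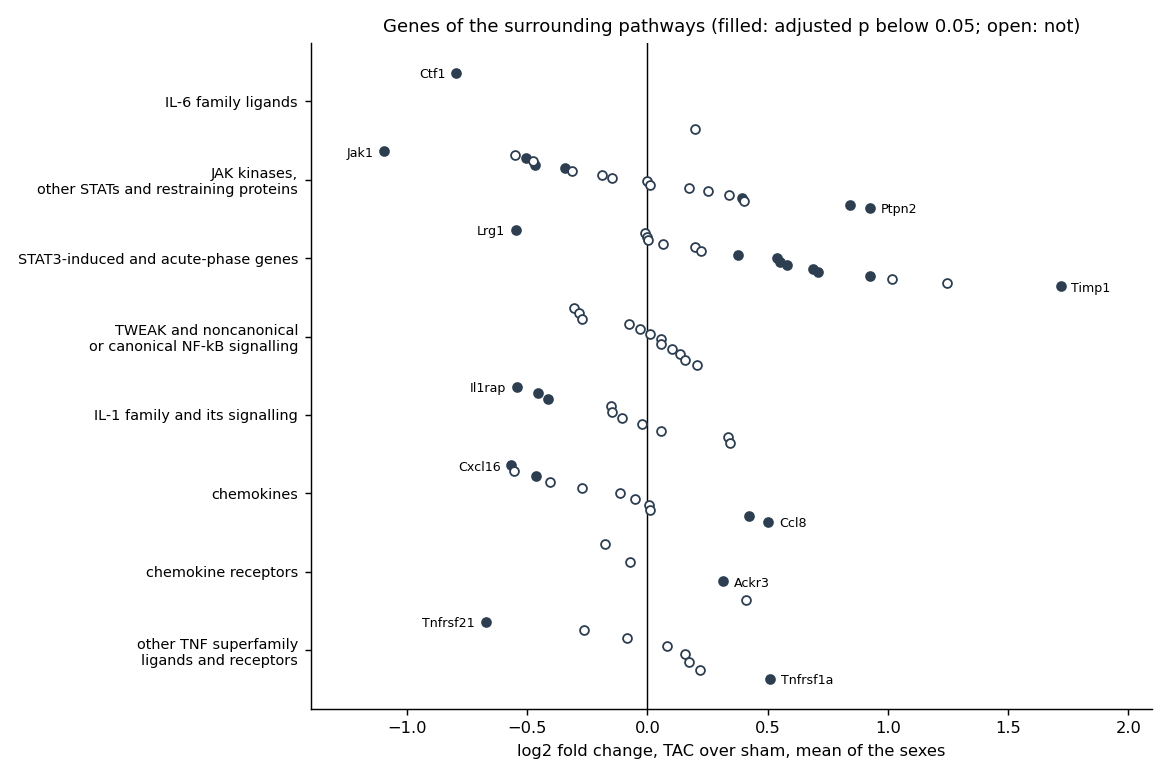
Log2 fold change of TAC over sham averaged over the sexes (horizontal axis) for the genes of the surrounding lists that passed the filter, 1 probe set per gene. Filled points have an adjusted p below 0.05, and names mark the called genes farthest from 0 in each direction. The TWEAK and NF-kB row holds no filled point, and Timp1 at 1.72 and Jak1 at -1.09 lie farthest out.

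The genes whose array-by-array pattern lay nearest to that of 3 members were taken by the root mean square difference of centred log2 signals over the 16 arrays, among 8271 other genes. For Tnfrsf12a they were Nppb (0.55), Emp1 (0.55), Nppa (0.57), Col1a2 (0.58) and Postn (0.59), in log2 units. These include both natriuretic peptide genes and a fibrillar collagen gene, and their own log2 changes were 2.08 to 2.90 in males and 1.67 to 2.67 in females. For Osmr they were Cox19 (0.20), Lgals1 (0.22), Mafk (0.22), Prnp (0.23) and Camk1 (0.23). For Socs3 they were Fam104a (0.23), Nit1 (0.24), Ramp2 (0.26), St6gal1 (0.26) and Znhit3 (0.27). The measure follows the spread of a pattern as well as its shape, so a member that hardly moves lies near other genes that hardly move.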

How the data were processed

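RNA from 16 left ventricles was hybridised to 16 arrays, 4 in each of 4 groups taken from the labels. The deposited values are signal intensities on a linear scale, computed by the authors with GCOS, per the submitters' processing notes. Its version and settings are not given in the sources used here. As tested on the values, the deposited intensities were already scaled: the mean after trimming 2% of probe sets at each end was 500.21 to 500.25 on all arrays. The series text names the RAE 430A array, while the probe set names are those of the mouse 430A array. Without detection calls, low signal and no expression of a gene cannot be told apart. Precision is limited by the number of arrays.

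The 64 control probe sets were left out of 22690, and the 40% of the rest with the lowest mean of log2(signal + 16) were left out, a limit at a signal of 130.8. This left 13576 probe sets. limma 3.58.1 in R 4.3.3 fitted 4 group means with an intensity trend, with two-sided tests and Benjamini-Hochberg adjustment over these probe sets. All fold changes are on the log2(signal + 16) scale, and all adjusted p values come from limma unless an exact test is named. Tested on simulated data, the male comparison recovered 62% of 2-fold changes among 200 changed probe sets of 13576. In the real male comparison 17.8% of probe sets were called, and the adjustment depends on that share. The 62% therefore does not give the recovery in these data. Genes were named from the platform annotation, only where a probe set had 1 symbol (20380 probe sets). Promoter windows came from RefSeq, GRCm38.p6.

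The members, lists and tests were chosen with earlier results of these data known. Beside the 10 members, up to 4 genes per list with the smallest p for the average of the sexes were named, and the 5 genes nearest to each of Tnfrsf12a, Osmr and Socs3. Nfkb2, Birc3, Il6, Il11, Lif, Adgre1 and Csf1r were named for their role after their values were seen where the rule did not take them. Each result was repeated under median centring, quantile normalization, no filter, leaving out the dimmest 60%, pseudocounts of 64 and 1, array weights, no intensity trend, only the groups compared, the replicate number as a block, the 18S signal or the Gapdh ratio as a covariate, and without each array in turn.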

Additional observations from a re-analysis of the deposited data

Results flagged for a closer look

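In 7 of 84 groups of 4 arrays, 1 array stood apart from the other 3 by more than Dixon's 95% critical value, and chance flags about 1 group in 20. Tnfrsf12a on 1418572_x_at had 3944.9 in female TAC 3, above the other female TAC arrays. Osmr on 1418674_at had 296.9 in male sham 1, below the other male shams. Lifr had 1219 in male sham 1 on 1454984_at and 219 in female sham 3 on the dim 1450207_at, each above its group. Il6ra on 1422270_a_at had 86.6 in female TAC 5, below its group. Stat3 had 1509.5 in male TAC 1 on 1426587_a_at and 39.4 in male TAC 5 on 1424272_at, each below its group.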

How the results depend on the processing

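No called value of a member or of a pathway gene named by the rule changed direction under any alternative. With the Gapdh ratio as a covariate, 1 member gene was called in males (4 without it), 1 in females (3) and 1 averaged over the sexes (3), and 3 member probe sets were called in males (7). With the 18S signal, 2 member genes were called in males. Both measures follow the operation, so their part and that of the operation cannot be told apart. With the replicate block, 1 member gene was called in females. Same-numbered arrays correlated at -0.03 to 0.11 after subtraction of group means, so the numbers do not show pairing. Leaving out 1 array gave 1 to 4 called member genes in females, the lowest without female TAC replicate 3. Why these counts moved was not tested. Of all repeats, 212 lost a call, 52 gained one, 306 changed a count by over 1.5 times and 7809 did none of these. Averaged over the sexes, with the Gapdh covariate 0 of 18 JAK and STAT genes were higher and 1 lower (3 and 4 without it). That covariate left 1 of 20 macrophage markers higher (10 without it) and 3 of 14 fibroblast markers higher (8). Of 12 cardiomyocyte markers it left 1 lower (8), and the 18S covariate left 2 lower. The shares of all probe sets called in these fits are not given, so the losses are not read as particular to the members or markers.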

Other observations

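Il1b was 1 of 3 probe sets of 13576 (0.0221%) that were higher in male TAC and lower in female TAC mice than in shams of the same sex, without overlap in either. The other two were Ighm, the constant region of the IgM heavy chain, with a female minus male response of -1.47 (limma adjusted p = 0.338), and Map3k4, a kinase of stress signalling, with -0.71 (adjusted p = 0.548). The reverse pattern was shown by 1 probe set. None passed the test of the difference of responses.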
